A study of Mus musculus with 49 samples.

Results

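Chemokines are small secreted proteins that guide leukocytes and other cells, and their receptors are seven-pass membrane proteins coupled to inhibitory G proteins. The genes described here are the mouse CC and CXC chemokines and their receptors, chosen by symbol: those that begin with Ccl, Cxcl, Ccr or Cxcr followed by a number, in all 5 expression tables of a study of adipose tissue in 2 inbred mouse strains. They number 54 of 22869 gene symbols: 24 CC chemokines, 13 CXC chemokines, 10 CC receptors and 7 CXC receptors. Where a symbol had several transcript rows, the row with the highest total was taken. Of the 54 genes, 32 reached a mean of 10 in at least 1 group of libraries, and 22 stayed below 10 in every group.

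The libraries were RNA-seq of white fat from 129S1/SvImJ mice (129) and C57BL/6 mice (C57). Epididymal fat (eWAT) was taken from mice on rodent chow (5 libraries of 129, 5 of C57). In the drug experiment, both strains ate a low fat diet for 10 weeks from age 6 weeks to 16 weeks. For the final 2 weeks, until 18 weeks of age, they ate either the same diet with rosiglitazone at 36 mg per kg of diet (4 libraries of 129, 4 of C57) or the diet without it (control diet, 4 of 129, 4 of C57). Rosiglitazone is an agonist of the nuclear receptor PPARG that is used to treat type 2 diabetes. In a further experiment without the drug, mice ate the low fat diet in groups labelled 12 weeks, and inguinal fat (iWAT, 4 of 129, 4 of C57) and eWAT (4 of 129, 5 of C57) were taken. The labels give no age for the chow and 12-week mice, and do not say whether replicates are separate animals, and the spread that p-values here rest on, between libraries, may be technical. Values below are given in the order of replicate 1 upwards.

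The values are the authors' normalized expression values, whole numbers with a floor of 1. The chow, drug and 12-week experiments were each normalized to a scale of their own, with highest values of 145538, 231290 and 267214, so levels are compared within an experiment. Read depth is unknown, since the values are not counts. Adipoq, the adipokine that marks fat cells, was between 2402 and 25245 in all 43 libraries. A few libraries stood apart. In iWAT, the summed level of 15 B cell markers was 7859 and 2415 in 129 replicates 1 and 4 and 4078 in C57 replicate 4, against at most 399 in the other 40 libraries. In 129 chow eWAT, replicates 1 and 2 held 33942 and 39892 of Crisp1, an epididymis gene, and Adipoq was lowest in replicate 2. C57 12-week eWAT replicate 3 had a summed skeletal muscle level of 29126. The 4 C57 iWAT libraries had between 32.1% and 37.7% of genes at the floor, against 15.2% to 27.2% in the other 39. Their scale was coarse: the lowest value above the floor was 8, 10, 11 and 5 in C57 iWAT replicates 1 to 4, against 2 to 4 in the other libraries, so that smaller values could not occur there.

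Chemokine genes fall into classes by the spacing of their first cysteines, and by use. Inflammatory chemokines such as Cxcl9, Cxcl10 and Ccl2 are induced by cytokines, whereas homeostatic ones such as Cxcl12 and Cxcl13 are made constantly by stromal cells. In adipose tissue, stromal and vascular cells, macrophages and adipocytes all make chemokines, and Ccl2 with its receptor Ccr2 is known for drawing monocytes into the fat of obese mice. In such whole-tissue libraries, fewer cells of a type and less RNA per cell cannot be told apart.

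The promoters of 4 CXC genes that the results below turn on are shown first: Cxcl9 and Cxcl10, which interferon gamma induces, and Cxcl12 and Cxcl14, which had the most calls across the comparisons among CXC genes together with Cxcl9. Each sequence is the 250 bases before the transcription start in RefSeq, on mouse build GRCm38.p6, read on the gene's own strand. Capitals mark matches to 5 motifs, each searched on both strands. These were GAS (TTCNNNGAA), the gamma interferon activation site; the ISRE core (GAAA, any 2 bases, GAAA), which interferon regulatory factors bind; the kappa B consensus, which NF-kappa B binds; the TATA box core (TATAAA); and DR1 (AGGTCA, any 1 base, AGGTCA), which PPARG binds with RXR.

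Cxcl9, chr5:92328080-92328329, minus strand: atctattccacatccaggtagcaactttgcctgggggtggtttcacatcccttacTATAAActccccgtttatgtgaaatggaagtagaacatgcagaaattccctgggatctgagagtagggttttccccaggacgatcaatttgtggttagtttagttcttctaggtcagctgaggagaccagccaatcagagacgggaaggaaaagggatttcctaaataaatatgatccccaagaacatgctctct
Cxcl10, chr5:92348890-92349139, minus strand: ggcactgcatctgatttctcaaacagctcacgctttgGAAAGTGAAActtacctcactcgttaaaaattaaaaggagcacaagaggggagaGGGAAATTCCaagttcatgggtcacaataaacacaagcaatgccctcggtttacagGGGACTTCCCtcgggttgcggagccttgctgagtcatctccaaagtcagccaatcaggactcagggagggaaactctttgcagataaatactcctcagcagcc
Cxcl12, chr6:117168285-117168534, plus strand: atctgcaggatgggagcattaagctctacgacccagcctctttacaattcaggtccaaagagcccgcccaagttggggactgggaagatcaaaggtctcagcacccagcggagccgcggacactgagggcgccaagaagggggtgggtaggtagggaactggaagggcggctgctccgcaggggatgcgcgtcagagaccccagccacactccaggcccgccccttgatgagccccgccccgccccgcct
Cxcl14, chr13:56296552-56296801, minus strand: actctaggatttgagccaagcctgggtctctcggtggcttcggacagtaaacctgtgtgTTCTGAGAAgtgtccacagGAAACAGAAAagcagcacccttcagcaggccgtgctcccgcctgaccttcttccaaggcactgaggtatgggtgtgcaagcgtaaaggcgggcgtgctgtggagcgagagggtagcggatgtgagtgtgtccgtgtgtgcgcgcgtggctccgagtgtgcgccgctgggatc

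The Cxcl10 window held 1 ISRE core, 213 to 204 bases before the start, and 2 kappa B matches, 159 to 150 and 103 to 94 bases before it. The Cxcl14 window held 1 GAS match, 191 to 183 bases before the start, and 1 ISRE core, 172 to 163 bases before it. The Cxcl9 window held 1 TATA box core, 195 to 190 bases before the start, and no other match. The Cxcl12 window held none of the 5, and no DR1 match was in any of the 4 windows. No matches overlapped each other. Among 32851 promoter windows of the same length, 7.02% held a GAS match, 2.98% an ISRE core, 3.9% a kappa B match, 12.4% a TATA box core and 0.0335% a DR1 match. A match describes letters only.

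Differences were tested with limma on log2(value + 1) over all 22869 genes, and a gene was called when its Benjamini-Hochberg adjusted p was under 0.05. A fold change on this scale understates the change of low genes. Across 9 comparisons of a pair of groups, 21 of the 54 genes were called at least once, 19 of them among the 32 that reached 10. How many of all genes were called at least once was not counted, so these counts give no rate to compare. In eWAT after 12 weeks of diet, 4 of 54 genes were higher and 7 lower in 129, where 11.6% of all genes were higher and 10.2% lower. On the control diet 3 were higher and 3 lower in 129, beside 10.0% and 7.50% of all genes. On rosiglitazone 2 were higher and 4 lower in 129, beside 5.45% and 5.23%. On chow none was higher and 1 was lower in 129, beside 2.39% and 2.61%. In iWAT none was higher and 2 were lower in 129, beside 1.13% and 0.560%. These shares of the 54 genes were near or below those of all genes except for the lower genes on rosiglitazone, in iWAT and in 12-week eWAT. The median difference of the 54 genes was -0.17 on chow, against 0.0 over all genes, and between -0.04 and 0.04 in the other 8 comparisons. Counts of called genes in the marker lists below stand beside the same shares of all genes.

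**Figure D1:**
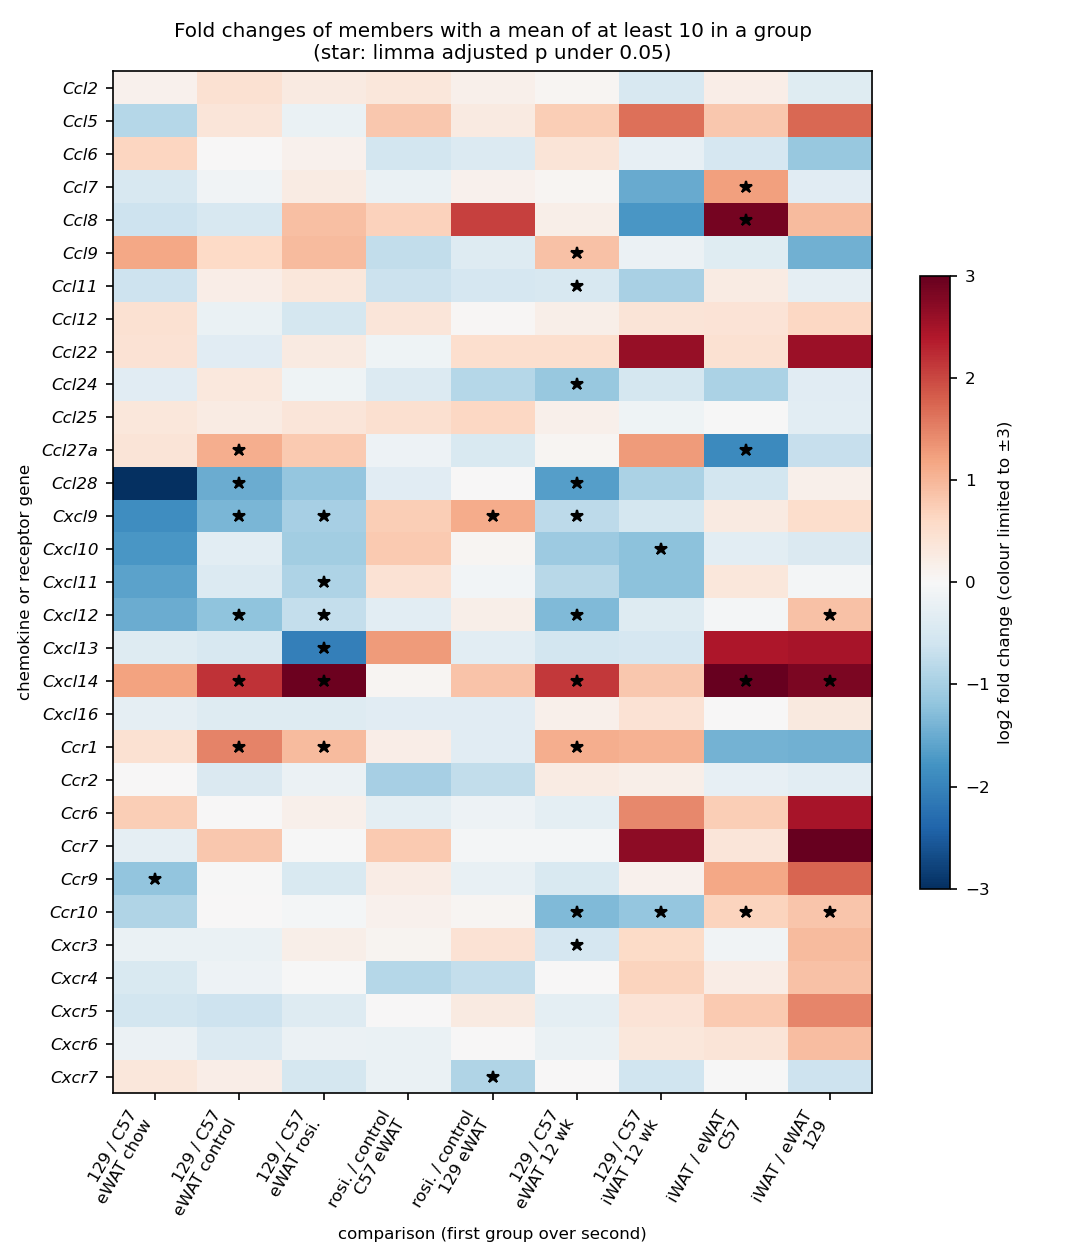
Log2 fold change (colour, limited to ±3) of 31 genes with a group mean of at least 10, one row per gene, in 9 comparisons (columns, first group over second); a star marks an adjusted p under 0.05. Cxcl14 is starred in 5 columns, and Cxcl12 is blue in every strain comparison of eWAT.

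Cxcl12, the stromal ligand that holds CXCR4-bearing cells in tissues, was lower in 129 than in C57 eWAT. On the control diet its values were 166, 153, 186 and 143 in 129 and 325, 474, 404 and 309 in C57. After 12 weeks they were 238, 123, 176 and 196 in 129 and 439, 398, 422, 445 and 555 in C57. The groups did not overlap in either. The log2 fold change was -1.20 ± 0.21 (SE, adjusted p = 0.000738) on the control diet and -1.33 ± 0.19 (adjusted p = 0.00322) after 12 weeks. On chow the values were 239, 81, 209, 313 and 302 in 129 and 648, 475, 781, 558 and 497 in C57. Here too every 129 library lay below every C57 library, yet the difference of -1.48 ± 0.37 had an adjusted p of 0.0584. Without 129 replicate 2, one of the libraries with epididymis transcripts, it was -1.15 with an adjusted p of 0.00925. All these values are from the kept transcript row of Cxcl12. In another row the 12-week eWAT means were closer, at 80 in 129 and 109.4 in C57. In a further row they were 106.25 in 129 and 263.4 in C57. Those rows were not tested alone.

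On rosiglitazone Cxcl12 was 148, 172, 320 and 133 in 129 and 348, 289, 322 and 244 in C57, and 1 library of 129 lay among those of C57. The difference was -0.71 ± 0.21 (adjusted p = 0.0383). It was not called without any 1 of C57 replicates 1, 2 and 3 and 129 replicates 1, 2 and 4, with adjusted p between 0.0783 and 0.123, nor with the drug groups fitted alone (adjusted p = 0.217). Rosiglitazone itself gave no Cxcl12 call in either strain.

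In iWAT Cxcl12 was 350, 284, 323 and 361 in 129 and 455, 515, 397 and 360 in C57, which overlapped. Against eWAT of the same strain it was higher in 129 iWAT, by 0.88 ± 0.18 (adjusted p = 0.0216). That call was lost without 129 eWAT replicate 3 (adjusted p = 0.0623) or 129 iWAT replicate 1 or 4 (adjusted p = 0.0654 and 0.0797), and without the 3 iWAT libraries rich in B cell markers it was 0.76 with an adjusted p of 0.219. The iWAT over eWAT difference in 129 minus that in C57 was 0.95 ± 0.24, with an adjusted p of 0.053. It was called without 129 eWAT replicate 1 (1.08, adjusted p = 0.0288) and without C57 iWAT replicate 2 (1.03, adjusted p = 0.045). In another transcript row of Cxcl12 the iWAT means went the other way between strains, at 253.25 in 129 and 188.5 in C57. In a further row they were 215.5 in 129 and 248 in C57.

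Endothelial markers moved in the same direction as Cxcl12 in eWAT. Of 13 of them, none was higher and 12 were lower in 129 after 12 weeks, none higher and 9 lower on the control diet, none higher and 5 lower on rosiglitazone, and none was called on chow. Their summed level ran from 2726 to 4103 in 129 and from 7013 to 7645 in C57 after 12 weeks, and from 3497 to 4547 in 129 and 5542 to 8180 in C57 on the control diet. Of 13 adipose progenitor markers, 1 was higher and 2 lower in 129 after 12 weeks, and 1 higher and 1 lower on the control diet. Their summed level ran from 24242 to 35889 in 129 and from 21190 to 25291 in C57 after 12 weeks. On the control diet it ran from 20159 to 25067 in 129 and from 10019 to 20567 in C57. The part of endothelial or progenitor RNA in the Cxcl12 difference was not tested.

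Neither receptor of CXCL12 was called between strains. Cxcr4, its signalling receptor, was 102, 88, 50 and 47 in 129 and 79, 48, 62, 66 and 88 in C57 eWAT after 12 weeks, which overlapped. Cxcr7, named Ackr3 in current annotation, is an atypical receptor that takes up CXCL12 without G protein signalling. It was 269, 327, 234 and 377 in 129 and 275, 347, 317, 297 and 253 in C57 eWAT after 12 weeks, which overlapped too. On rosiglitazone Cxcr7 was 138, 112, 88 and 122 in 129 and 206, 167, 135 and 154 in C57, with 1 library of 129 above 1 of C57, a difference of -0.52 ± 0.18 (adjusted p = 0.0688) in the direction of Cxcl12.

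Cxcl14, a chemokine made by epithelial and stromal cells, was the gene with the most calls. It was higher in 129 than in C57 eWAT, and higher in iWAT than in eWAT of both strains. After 12 weeks eWAT had 33, 71, 44 and 45 in 129 and 8, 11, 15, 10 and 7 in C57, a difference of 2.13 ± 0.27 (adjusted p = 0.00195). On the control diet the values were 46, 40, 44 and 22 in 129 and 18, 1, 10 and 11 in C57 (2.16 ± 0.49, adjusted p = 0.00504), and with those groups fitted alone the adjusted p was 0.106. On rosiglitazone they were 90, 57, 81 and 48 in 129 and 7, 9, 6 and 10 in C57 (2.94 ± 0.49, adjusted p = 0.000778). In these 3 comparisons no 129 library overlapped a C57 library.

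On chow Cxcl14 was 162, 36, 53, 60 and 50 in 129 and 26, 18, 26, 50 and 21 in C57, and the groups overlapped (1.21 ± 0.42, adjusted p = 0.178). In iWAT it was 236, 338, 436 and 363 in 129 and 190, 149, 315 and 146 in C57, again with overlap (0.82 ± 0.31, adjusted p = 0.345). Set against eWAT, these iWAT values were far above, with no overlap in either strain. The iWAT over eWAT fold change was 2.83 ± 0.30 (adjusted p = 0.000123) in 129 and 4.13 ± 0.28 (adjusted p = 8.24e-07) in C57. Both depot calls held in every alternative fit that was tried. The fold change in 129 minus that in C57 was -1.31 ± 0.41, and its adjusted p was 0.111.

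Among adipose progenitor markers, 2 of 13 were higher and none lower in 129 iWAT than in 129 eWAT, and 6 were higher and none lower in C57 iWAT. Their summed level ran from 34573 to 52467 in 129 iWAT and from 24242 to 35889 in 129 eWAT, and from 39360 to 51038 in C57 iWAT and from 21190 to 25291 in C57 eWAT. Mesothelial markers went the other way: 10 of 11 were lower in iWAT in each strain. The part of these cell types in the Cxcl14 difference was not tested.

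**Figure D2:**
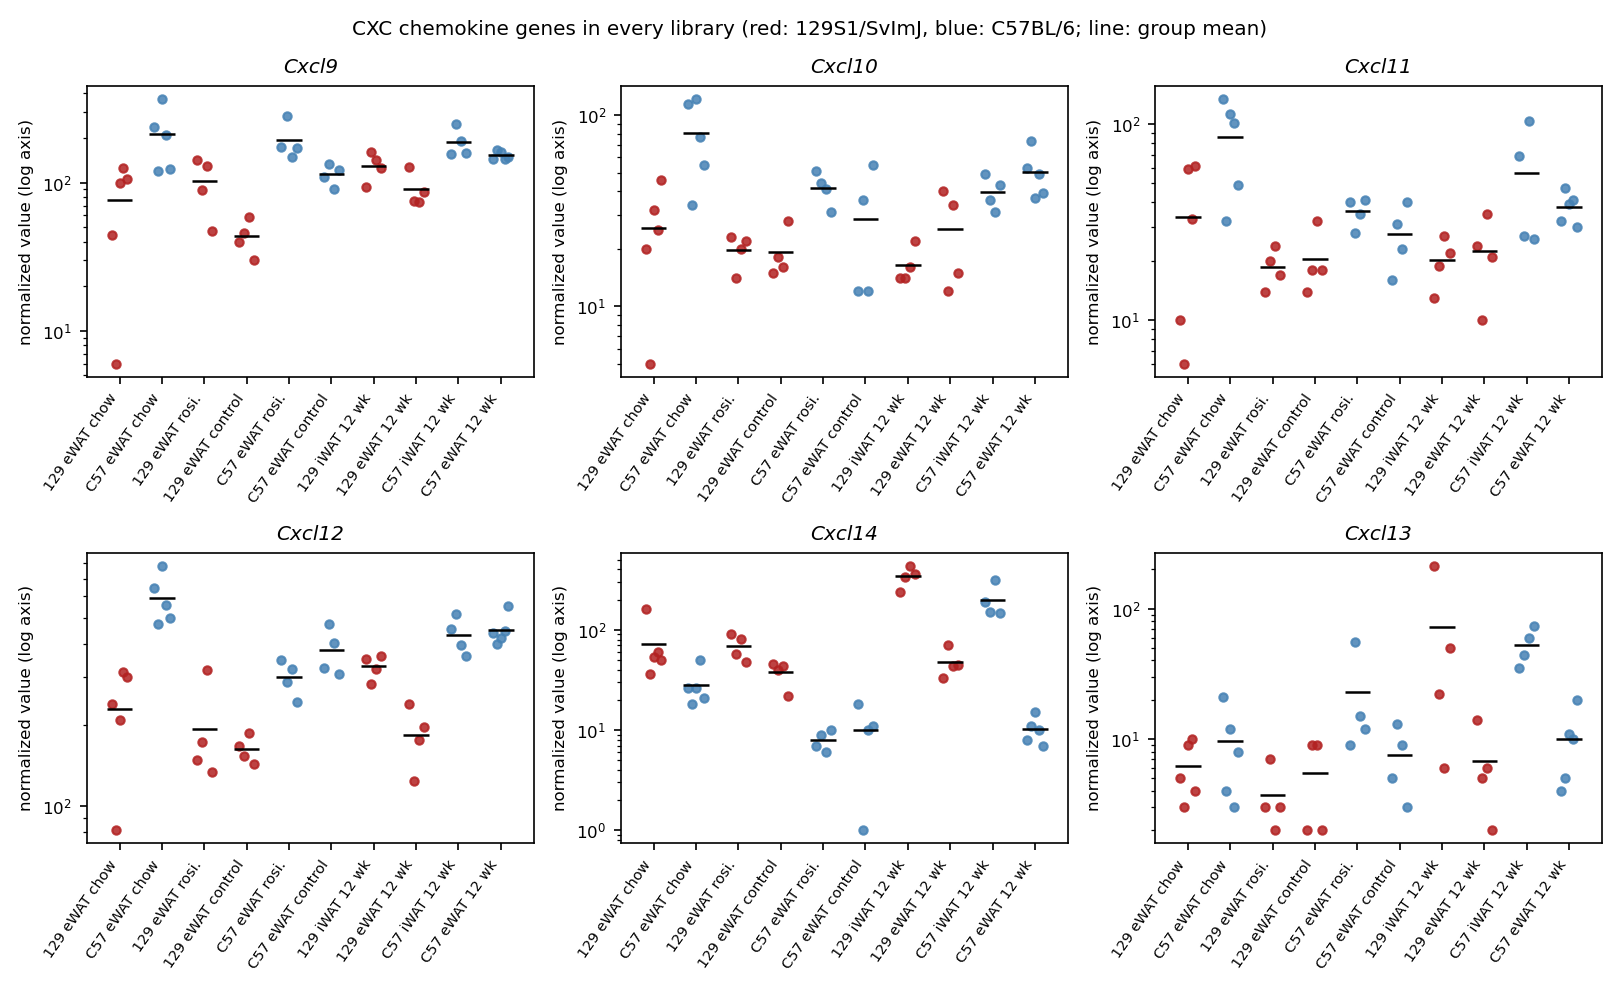
Normalized value (log axis) of 6 CXC chemokine genes in every library of the 10 groups, with 129 in red, C57 in blue and the group mean as a line; the chow, drug and 12-week experiments have 3 separate scales. For Cxcl12 the 129 eWAT points on the control diet and after 12 weeks lie below all C57 points of the same diet, and Cxcl14 points in iWAT lie between 146 and 436.

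Cxcl9, Cxcl10 and Cxcl11 are the ligands of CXCR3, are induced by interferon gamma and attract activated T cells. Cxcl9 was lower in 129 than in C57 eWAT on all 3 low fat diets. It was 40, 46, 59 and 30 in 129 and 109, 134, 90 and 122 in C57 on the control diet (-1.38 ± 0.30, adjusted p = 0.00353). After 12 weeks it was 127, 75, 74 and 87 in 129 and 144, 165, 162, 144 and 148 in C57 (-0.78 ± 0.16, adjusted p = 0.0139). The 129 libraries were below all C57 libraries in both. On rosiglitazone it was 141, 89, 130 and 47 in 129 and 174, 283, 148 and 170 in C57, also without overlap (-0.99 ± 0.30, adjusted p = 0.0402). This last call was lost without any 1 of C57 replicates 1, 2 and 4 and 129 replicates 2 and 4 (adjusted p from 0.0619 to 0.123) and with the drug groups fitted alone (adjusted p = 0.204).

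Cxcl9 on chow was 44, 6, 99, 125 and 106 in 129 and 238, 119, 365, 211 and 124 in C57, which overlapped by 1 library of 129 above 2 of C57 (-1.87 ± 0.81, adjusted p = 0.283). In iWAT it was 93, 161, 142 and 125 in 129 and 156, 247, 191 and 158 in C57, and was not called.

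Cxcl10 was called lower in 129 in iWAT, where it was 14, 14, 16 and 22 in 129 and 49, 36, 31 and 43 in C57. The groups did not overlap and differed by -1.22 ± 0.20 (adjusted p = 0.0444). The coarse C57 iWAT scale limits this: in replicate 3, at 31, the next lower value that occurred was 21, within the 129 range. Leaving out any 1 of the 8 libraries ended the call, with adjusted p from 0.158 to 0.319, and the fold change then ran from -1.36 to -1.12. Without the 3 libraries rich in B cell markers it was -1.29 (adjusted p = 0.307). In eWAT the values were 40, 12, 34 and 15 in 129 and 53, 73, 37, 49 and 39 in C57 after 12 weeks, with 1 library of 129 above 2 of C57 (-1.09 ± 0.40, adjusted p = 0.101, and 0.0174 under a filter on low values). On rosiglitazone 23, 14, 20 and 22 in 129 stood apart from 51, 44, 41 and 31 in C57, with an adjusted p of 0.0735, and 0.0378 with the drug groups fitted alone. On chow they were 20, 5, 32, 25 and 46 in 129 and 114, 34, 121, 77 and 55 in C57 (adjusted p = 0.161). On the control diet 15, 18, 16 and 28 in 129 lay among 12, 36, 12 and 55 in C57.

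Cxcl11 was lower in 129 eWAT on rosiglitazone, with 14, 20, 24 and 17 in 129 and 40, 28, 35 and 41 in C57, which did not overlap. The difference was -0.92 ± 0.27 (adjusted p = 0.0344) and was not called without any 1 of C57 replicates 1, 3 and 4 and 129 replicates 1, 2 and 4 (adjusted p from 0.0601 to 0.115). After 12 weeks the eWAT values were 24, 10, 35 and 21 in 129 and 32, 47, 39, 41 and 30 in C57 (adjusted p = 0.131, and 0.028 under that filter). The kept Cxcl11 row is a non-coding record, since RefSeq lists the gene as a transcribed pseudogene in C57BL/6J. Cxcl10 and Cxcl11 overlap exons of other genes on the opposite strand (Art3 and Gm2673), and without a statement that counting used strand their values are uncertain to that extent.

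Cxcr3, the receptor of these ligands, was lower in 129 eWAT after 12 weeks: 7, 7, 7 and 6 in 129 and 12, 8, 10, 10 and 10 in C57 (-0.50 ± 0.10, adjusted p = 0.0131). It was at or under 16 in every eWAT library, and the call was lost under a filter on low values (adjusted p = 0.0793). Of 22 genes that interferon gamma induces, none was higher and 6 were lower in 129 eWAT after 12 weeks, 1 higher and 8 lower on the control diet, none higher and 6 lower on rosiglitazone, and none higher and 3 lower on chow. Their median difference was -0.34, -0.48, -0.24 and -0.31 in that order of diets, against 0.0, 0.01, 0.0 and 0.0 over all genes. After 12 weeks Gbp4, an interferon-induced GTPase, averaged 104 ± 25.1 in 129 and 219 ± 29.7 in C57 (SD, adjusted p = 0.00534). Irf1, a transcription factor of the interferon response, averaged 192 ± 37.2 in 129 and 327 ± 23.3 in C57 (adjusted p = 0.00555). Gbp2 went the other way on the control diet, at 586 ± 64.8 in 129 and 317 ± 19.5 in C57 (adjusted p = 0.000593).

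Cxcl13, which draws B cells through CXCR5, was lower in 129 eWAT on rosiglitazone: 3, 7, 2 and 3 in 129 and 9, 55, 15 and 12 in C57 (-2.06 ± 0.54, adjusted p = 0.0161). Without C57 replicate 2, the library at 55, the difference was -1.53 (adjusted p = 0.0735), and without 129 replicate 1 it was -2.01 (adjusted p = 0.0504), and with the drug groups fitted alone the adjusted p was 0.105. Of 15 B cell markers, 1 was higher and 1 lower in 129 there, their summed level ran from 119 to 144 in 129 and from 114 to 253 in C57, and the part of B cells in the difference was not tested. In C57 iWAT Cxcl13 was 35, 44, 59 and 73, above all C57 eWAT values of 4, 5, 11, 10 and 20, and the difference of 2.43 ± 0.80 had an adjusted p of 0.0635. Without the iWAT library rich in B cell markers, and the 2 of 129, it was 2.25 with an adjusted p of 0.0298, and under a filter on low values or with the groups fitted alone the adjusted p was 0.0214 and 0.015. Cxcl16, a membrane-bound chemokine of macrophages that binds CXCR6, had group means from 32 to 92.2 and was not called.

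The receptors that lymphocytes and dendritic cells use to enter lymphoid tissue were high in the same 3 iWAT libraries as the B cell markers. Ccr7, which follows CCL19 and CCL21 into lymph nodes, was 642, 4, 11 and 318 in 129 iWAT and 8, 1, 1 and 199 in C57 iWAT, and at most 11 in all 40 other libraries. Cxcr5, the B cell receptor for CXCL13, was 198, 3, 6 and 69 in 129 iWAT and 15, 19, 1 and 195 in C57 iWAT. Ccr6, the receptor for CCL20, was 133, 1, 2 and 37 in 129 iWAT and 1, 1, 1 and 69 in C57 iWAT. Each was high in 129 replicates 1 and 4 and C57 replicate 4.

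Of the 54 genes, 11 (20.4%) had all 3 of these libraries above all 40 others, beside 2.08% of all genes, over libraries on 3 scales: the ligands Ccl5 and Ccl22 and the receptors Ccr6, Ccr7, Ccr8, Ccr9, Cxcr2, Cxcr3, Cxcr4, Cxcr5 and Cxcr6. Ccl5, a T cell product, was 65 to 205 in the 3 libraries and 1 to 17 in the others. Ccl22, a dendritic cell product, was 52 to 144 in the 3 and 1 to 9 in the others. Cxcr4 was 211 to 399 in the 3 and 6 to 113 in the others. These libraries were picked by their B cell markers, so the values are given with no test.

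T cell and natural killer cell markers summed to between 2142 and 6108 in the 3 libraries and between 157 and 376 in the other 40. Macrophage markers did not separate them: their sum was between 8355 and 11235 in the 3 and between 8558 and 10019 in the other 5 iWAT libraries. Lymphatic endothelial markers summed to between 383 and 497 in the 3 and between 345 and 669 in the other 5. Ccl19, Ccl21a, Ccl21b and Ccl21c, the CCR7 ligands of lymph node stroma, were at 1 or 2 in every library. The Ccl21 genes are near-identical copies, so their values are uncertain. With 2 of 4 libraries of 129 and 1 of 4 of C57 in this state, none of Ccr7, Cxcr5, Ccr6, Ccl22, Ccl5, Cxcr4 and Cxcr6 was called between strains or depots.

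**Figure D3:**
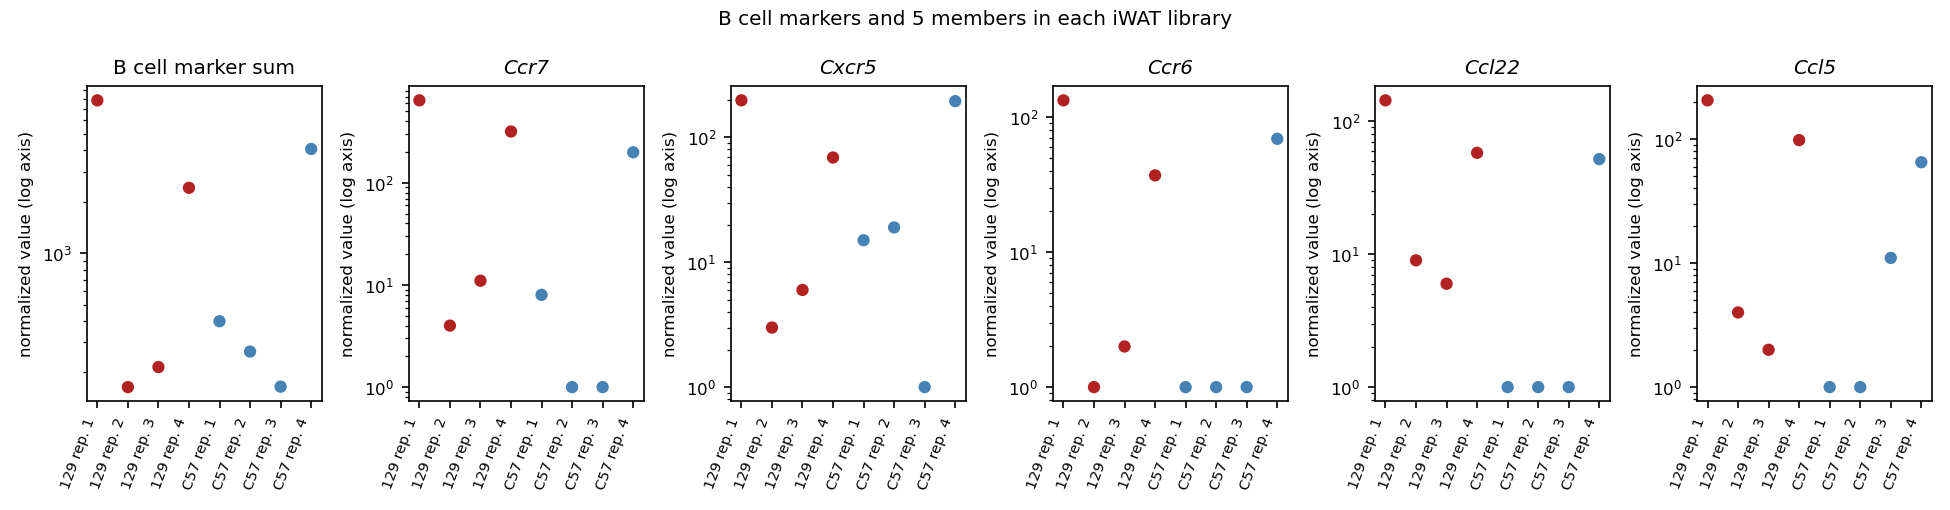
Normalized value (log axis) of the summed B cell markers and of Ccr7, Cxcr5, Ccr6, Ccl22 and Ccl5 in each of the 8 iWAT libraries (129 in red, C57 in blue). 129 replicates 1 and 4 and C57 replicate 4 are the highest in each of the 6 panels, with Ccr7 at 642, 318 and 199.

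Ccl6 and Ccl9 are neighbouring CC genes of myeloid cells whose products bind CCR1. Ccl9 and Ccr1 itself were called higher in 129 eWAT, while Ccl6 was called only in alternative fits. Ccl9 after 12 weeks was 467, 536, 507 and 464 in 129 eWAT and 270, 253, 351, 245 and 224 in C57 eWAT, with no overlap (0.89 ± 0.13, adjusted p = 0.00314). Ccl6 was 514, 664, 496 and 531 in 129 and 372, 397, 594, 398 and 365 in C57, where C57 replicate 3 lay among the 129 libraries (0.39 ± 0.16, adjusted p = 0.150, and 0.0355 under a filter on low values). Without that library, which carried the skeletal muscle transcripts, Ccl6 differed by 0.52 with an adjusted p of 0.0163.

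On chow Ccl9 was 471, 79, 711, 455 and 747 in 129 and 260, 102, 161, 195 and 183 in C57, and Ccl6 was 581, 73, 617, 472 and 706 in 129 and 346, 172, 190, 278 and 291 in C57. Replicate 2 of 129 was the lowest of all 10 libraries for both genes, and the other 4 of 129 were above every C57 library. With it, neither was called (adjusted p = 0.401 and 0.666). Without it, Ccl9 differed by 1.75 (adjusted p = 0.00996) and Ccl6 by 1.25 (adjusted p = 0.0157). In the drug experiment the strains overlapped for Ccl9 on the control diet, with 375, 618, 229 and 348 in 129 and 297, 165, 401 and 183 in C57. On rosiglitazone 360, 274, 260 and 247 in 129 stood above 84, 224, 167 and 140 in C57 (0.96 ± 0.35, adjusted p = 0.109). Within 129, Ccl9 was 67, 342, 316 and 152 in iWAT and 467, 536, 507 and 464 in eWAT, without overlap (-1.43 ± 0.41, adjusted p = 0.126). Without 129 iWAT replicate 2 it was -1.73 (adjusted p = 0.0465), and under a filter on low values the adjusted p was 0.0319.

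Ccr1 was higher in 129 eWAT on all 3 low fat diets. On the control diet it was 44, 35, 41 and 52 in 129 and 12, 17, 31 and 7 in C57 (1.48 ± 0.31, adjusted p = 0.00194). On rosiglitazone it was 45, 31, 33 and 28 in 129 and 15, 21, 21 and 12 in C57 (0.96 ± 0.31, adjusted p = 0.0495). After 12 weeks it was 60, 84, 53 and 45 in 129 and 24, 32, 42, 17 and 28 in C57 (1.08 ± 0.28, adjusted p = 0.0332). In none of the 3 did the strains overlap. The rosiglitazone call was lost without any 1 of its 8 libraries (adjusted p from 0.0594 to 0.157). The 12-week call was lost without any 1 of C57 replicates 1, 2, 4 and 5 and 129 replicates 1, 2 and 3 (adjusted p from 0.0511 to 0.0779). The control diet call held without each library in turn, but not with those groups fitted alone (adjusted p = 0.0673).

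Of 23 macrophage markers, 5 were higher and 3 lower in 129 eWAT after 12 weeks, 2 higher and none lower on the control diet and on rosiglitazone, and 1 higher and 1 lower on chow. Of all genes, 11.6% were higher and 10.2% lower after 12 weeks, and 10.0% and 7.50% on the control diet. The summed level of the 23 markers ran from 8318 to 12632 in 129 and from 8969 to 12388 in C57 after 12 weeks. Trem2, a receptor of lipid-associated macrophages, averaged 426 ± 88.2 in 129 and 34.6 ± 7.86 in C57 (adjusted p = 0.000123), while C1qa averaged 447 ± 118 in 129 and 946 ± 151 in C57 (adjusted p = 0.00808). Trem2 was higher in 129 eWAT on the other 3 diets too, by 2.88 on chow (adjusted p = 0.0294), 3.45 on the control diet (adjusted p = 0.000425) and 3.29 on rosiglitazone (adjusted p = 0.00087). The part of macrophage RNA in these differences was not tested.

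Ccl24 and Ccl11 make eotaxins, which attract eosinophils through CCR3. Both were lower in 129 eWAT after 12 weeks. Ccl24 was 38, 47, 35 and 53 in 129 and 78, 97, 114, 97 and 94 in C57 (-1.14 ± 0.15, adjusted p = 0.00216). Ccl11 was 186, 242, 247 and 181 in 129 and 293, 265, 301, 287 and 324 in C57 (-0.47 ± 0.12, adjusted p = 0.0261). Neither overlapped between strains. The Ccl11 call was lost without any 1 of C57 replicates 1, 3, 4 and 5 and 129 replicates 1 and 4 (adjusted p from 0.0541 to 0.0613). In iWAT Ccl11 was 112, 248, 216 and 155 in 129 and 392, 377, 387 and 249 in C57. The groups nearly met there, at 248 in 129 and 249 in C57, and the adjusted p was 0.235. Neither gene was called between strains on the other 3 diets, where the groups overlapped. On the control diet Ccl24 was 27, 19, 25 and 39 in 129 and 18, 16, 17 and 40 in C57. Ccl11 was 207, 204, 188 and 189 in 129 and 267, 122, 124 and 215 in C57 there. The lower values of 129 after 12 weeks were thus not repeated on that diet. Ccr3 itself was at most 9 in every library.

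The CC chemokine genes Ccl7 and Ccl8 were called higher in iWAT than in eWAT of C57, and were not called between depots in 129. Ccl8 was 162, 141, 226 and 77 in C57 iWAT and 27, 15, 32, 9 and 18 in C57 eWAT (2.87 ± 0.56, adjusted p = 0.00429). Ccl7 was 49, 44, 50 and 39 in C57 iWAT and 29, 21, 19, 15 and 13 in C57 eWAT (1.23 ± 0.36, adjusted p = 0.0384). Both genes were above every eWAT value in all 4 C57 iWAT libraries. The Ccl7 call was lost without any 1 of C57 eWAT replicates 2, 3, 4 and 5 and C57 iWAT replicates 1, 2, 3 and 4 (adjusted p from 0.0549 to 0.0909).

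In 129, Ccl8 was 60, 24, 70 and 29 in iWAT and 24, 52, 6 and 24 in eWAT, and Ccl7 was 7, 31, 23 and 10 in iWAT and 27, 16, 22 and 15 in eWAT, with overlap in both. The depot difference in 129 minus that in C57 was -1.92 ± 0.81 (adjusted p = 0.253) for Ccl8 and -1.58 ± 0.52 (adjusted p = 0.132) for Ccl7, and neither was called. Without 129 iWAT replicate 2, that of Ccl7 was -1.91 (adjusted p = 0.0492). Ccl2, the main CCR2 ligand, had group means between 16.6 and 26.8 and was not called anywhere, and Ccl12 had group means between 3.5 and 10.0.

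**Figure D4:**
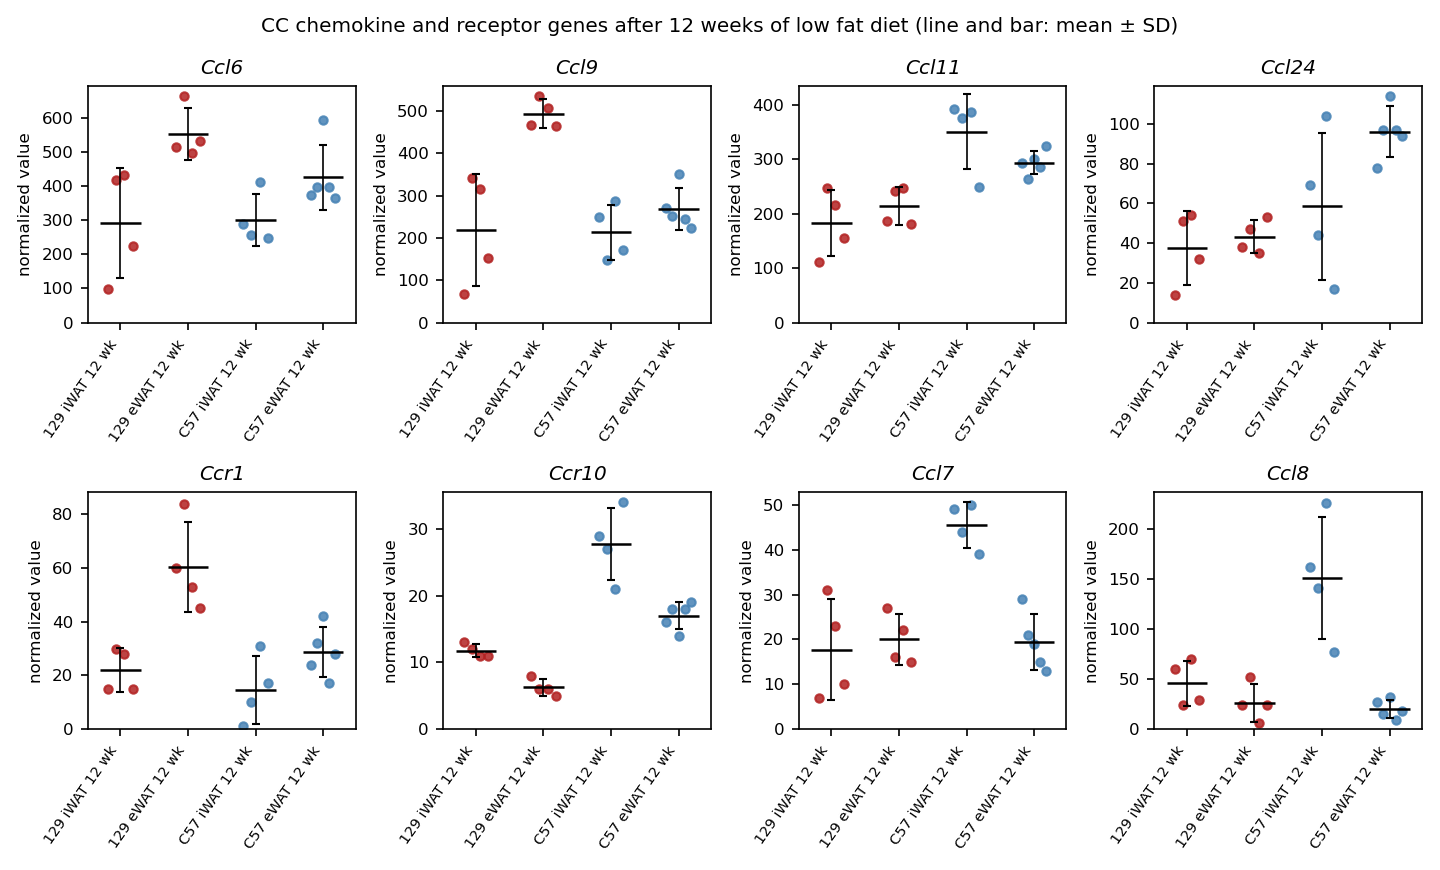
Normalized value of 8 CC chemokine and receptor genes after 12 weeks of low fat diet in each library of 129 (red) and C57 (blue) iWAT and eWAT; lines and bars give the mean ± SD. In eWAT the 129 points for Ccl9 and Ccr1 lie above all C57 points, those for Ccl11, Ccl24 and Ccr10 below, and Ccl8 is highest in C57 iWAT (77 to 226).

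CCL27 and CCL28 are epithelial chemokines that share the receptor CCR10. Ccr10 was lower in 129 than in C57 in both depots, and higher in iWAT than in eWAT in both strains. In eWAT after 12 weeks it was 8, 6, 6 and 5 in 129 and 16, 18, 14, 18 and 19 in C57 (-1.32 ± 0.13, adjusted p = 0.000774). In iWAT it was 13, 12, 11 and 11 in 129 and 29, 27, 21 and 34 in C57 (-1.16 ± 0.15, adjusted p = 0.0226). Neither pair of groups overlapped, nor did iWAT and eWAT of the same strain. The coarse C57 iWAT scale limits this: in replicate 3, at 21, the next lower value that occurred was 11. That is within the 129 iWAT range and below all C57 eWAT values. The iWAT strain call was lost without any 1 of the 8 libraries, with adjusted p from 0.173 to 0.319, while the fold change stayed between -1.28 and -1.06.

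The iWAT over eWAT difference of Ccr10 was 0.83 ± 0.14 (adjusted p = 0.00822) in 129 and 0.66 ± 0.14 (adjusted p = 0.00617) in C57. Without the 3 libraries rich in B cell markers, the 129 value was 0.80 (adjusted p = 0.0602), and under a filter on low values neither was called (adjusted p = 0.113 in 129 and 0.071 in C57). In the drug experiment Ccr10 was between 6 and 14 in all 16 libraries and was not called. On chow it was 9, 4, 15, 23 and 20 in 129 and 37, 14, 26, 28 and 20 in C57, which overlapped.

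Ccl28 was lower in 129 eWAT on the control diet, at 3, 1, 1 and 2 in 129 and 4, 9, 5 and 9 in C57 (-1.49 ± 0.40, adjusted p = 0.0113). After 12 weeks it was 1, 2, 1 and 1 in 129 and 4, 5, 6, 10 and 6 in C57 (-1.65 ± 0.24, adjusted p = 0.00341). The 129 values were at or next to the floor. On chow Ccl28 was 10, 22, 6, 4 and 2 in 129 and 19, 389, 17, 28 and 524 in C57, so that 2 C57 libraries were more than 10 times the other 3 (-3.26 ± 1.15, adjusted p = 0.182). In those C57 libraries, replicates 2 and 5, Cxcl16 was also highest, at 112 and 157 against 66, 71 and 55 in replicates 1, 3 and 4, and the summed lymphatic endothelial markers were 992 and 1377 against 452, 319 and 680. The part of these in the Ccl28 values was not tested.

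Ccl27a was higher in 129 eWAT on the control diet, at 14, 13, 16 and 13 in 129 and 5, 9, 5 and 6 in C57 (1.08 ± 0.29, adjusted p = 0.0123), with no overlap. On rosiglitazone it was 6, 14, 11 and 10 in 129 and 7, 4, 4 and 7 in C57 (adjusted p = 0.0949). It was also called lower in C57 iWAT than in C57 eWAT, where 15, 1, 1 and 1 in iWAT overlapped 9, 17, 15, 9 and 10 in eWAT (-1.90 ± 0.57, adjusted p = 0.0417). That call was lost without any 1 of the 5 eWAT libraries or of iWAT replicates 2, 3 and 4 (adjusted p from 0.061 to 0.106) and under a pseudocount of 10 (adjusted p = 0.0959), and 3 of the 4 iWAT values were at the floor, in libraries whose next values were 10, 11 and 5. Ccl27a overlaps exons of Il11ra1 on the opposite strand and has near-identical copies, so its values are uncertain.

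Ccr9, the gut-homing receptor for CCL25, gave the only call on chow. It was 7, 6, 15, 10 and 10 in 129 and 28, 20, 26, 21 and 17 in C57, with no overlap (-1.18 ± 0.24, adjusted p = 0.0264). It was not called without any 1 of C57 replicates 1, 2, 3 and 4 and 129 replicates 1, 4 and 5 (adjusted p from 0.0566 to 0.07). In the other eWAT groups it was between 5 and 16 and was not called. Ccr9 overlaps exons of Slc6a20a and other genes, and its values are uncertain to that extent. Ccl25, whose exons overlap Elavl1, had group means between 8.5 and 17.6.

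Rosiglitazone gave calls for few of the 54 genes, at shares near those of all genes. In 129 eWAT 1 was higher and 1 lower than on the control diet, beside 2.96% and 2.56% of all genes. There 9 of the 54 (16.7%) had an unadjusted limma p under 0.05, beside 17.3% of all genes. In C57 eWAT none was called higher or lower by limma, beside 1.53% and 0.901%, and 8 of the 54 (14.8%) had an unadjusted p under 0.05, beside 13.9% of all genes. The control-diet libraries enter both these comparisons and the strain comparison on that diet.

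Cxcr7 fell in 129: it was 138, 112, 88 and 122 on rosiglitazone and 218, 203, 194 and 248 on the control diet, without overlap (-0.91 ± 0.18, adjusted p = 0.00292). The call held in every alternative fit that was tried. In C57 Cxcr7 was 206, 167, 135 and 154 on rosiglitazone and 125, 243, 231 and 172 on the control diet, which overlapped. The response in 129 minus that in C57 was -0.73 ± 0.25 (adjusted p = 0.292), and so a difference between strains was not called.

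Cxcl9 rose in 129 to 141, 89, 130 and 47 on rosiglitazone, against 40, 46, 59 and 30 on the control diet (1.12 ± 0.30, adjusted p = 0.0332), and 1 treated library lay within the control range. The call was lost without any 1 of 129 control replicates 1, 2 and 4 and 129 rosiglitazone replicates 1, 2 and 3 (adjusted p from 0.0639 to 0.111). In C57 it was 174, 283, 148 and 170 on rosiglitazone and 109, 134, 90 and 122 on the control diet, with no overlap, at 0.73 ± 0.30 (adjusted p = 0.257). Irf1 rose in both strains, to 190 ± 17.5 on rosiglitazone against 134 ± 15.3 on the control diet in 129 (adjusted p = 0.00465) and to 282 ± 24.3 on rosiglitazone against 195 ± 14 on the control diet in C57 (adjusted p = 0.007).

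Ccr2, the monocyte receptor for CCL2, had lower means with the drug in both strains and passed the test in neither. It was 77, 77, 80 and 39 on rosiglitazone and 95, 140, 115 and 94 on the control diet in 129 (-0.73 ± 0.31, adjusted p = 0.219). In C57 it was 40, 115, 74 and 88 on rosiglitazone and 190, 139, 198 and 95 on the control diet (-1.0 ± 0.31, adjusted p = 0.113). Without C57 control replicate 4 the C57 difference was -1.22 (adjusted p = 0.0436), and without C57 rosiglitazone replicate 2 it was -1.21 (adjusted p = 0.0404).

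Cxcr4 was 43, 34, 37 and 22 on rosiglitazone and 58, 57, 59 and 47 on the control diet in 129, without overlap (-0.72 ± 0.29, adjusted p = 0.176). In C57 it was 38, 67, 21 and 23 on rosiglitazone and 53, 79, 77 and 43 on the control diet (-0.85 ± 0.29, adjusted p = 0.141), and -1.18 without C57 rosiglitazone replicate 2 (adjusted p = 0.0114). Without C57 control replicate 4, Cxcl10 was called higher with the drug in C57, by 1.19 (adjusted p = 0.0467). Macrophage markers had a summed level from 4355 to 7310 on rosiglitazone and 6354 to 9608 on the control diet in 129, and from 3295 to 7957 on rosiglitazone and 5713 to 11527 on the control diet in C57. Of the 23 markers, only Cd163 was called in 129 or in C57, and it was lower with the drug in both. The part of macrophage RNA in the Ccr2 and Cxcr4 values was not tested.

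**Figure D5:**
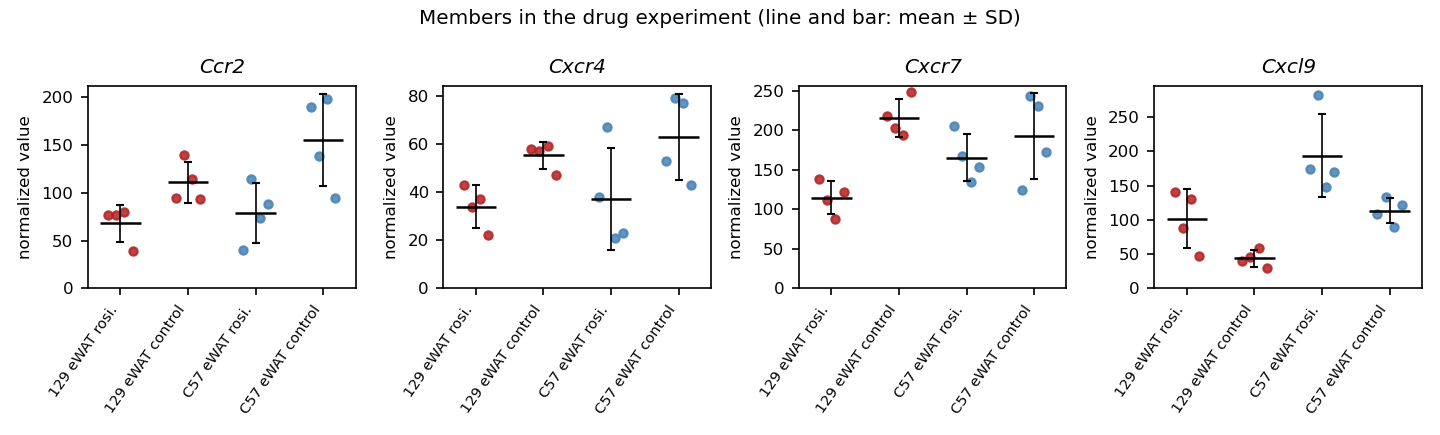
Normalized value of Ccr2, Cxcr4, Cxcr7 and Cxcl9 in each eWAT library of the drug experiment, with rosiglitazone left of its control diet in 129 (red) and C57 (blue); lines and bars give the mean ± SD. Cxcr7 in 129 is separated (88 to 138 with the drug, 194 to 248 without), while in C57 the points overlap.

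Between depots, 3 of the 54 genes were higher and none lower in iWAT than in eWAT of 129 (Cxcl14, Ccr10 and Cxcl12), beside 0.525% and 1.19% of all genes. In C57, 4 were higher (Cxcl14, Ccl8, Ccr10 and Ccl7) and 3 lower (Cxcl2, Ccr3 and Ccl27a), beside 5.27% and 7.81%. Cxcl2, a neutrophil attractant, and Ccr3 were at 1 in all 4 C57 iWAT libraries, 2 to 3 and 2 to 6 in C57 eWAT, and thus under 10 throughout. Values of 2 to 4 could not occur in any C57 iWAT library, so these calls do not show lower levels in iWAT. The Ccr3 call was lost without any 1 of C57 eWAT replicates 2, 3 and 4 and C57 iWAT replicates 1 and 2 (adjusted p from 0.0505 to 0.0635). None of the 54 was called by limma in the strain by depot interaction, where 1.43% of all genes were higher and 1.70% lower and 6 of the 54 (11.1%) had an unadjusted p under 0.05, beside 16.1% of all genes. Without 129 eWAT replicate 2, Ccr3 was called there (2.02, adjusted p = 0.0426), with the same limit. None was called in the strain by rosiglitazone interaction, beside 0.0743% and 0.136%, with 3 (5.56%) at an unadjusted p under 0.05, beside 9.90% of all genes.

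The 13 genes that reached 10 but were never called were Ccl2, Ccl5, Ccl6, Ccl12, Ccl22, Ccl25, Cxcl16, Ccr2, Ccr6, Ccr7, Cxcr4, Cxcr5 and Cxcr6. Cxcr6, the receptor for CXCL16, had group means between 10.8 and 44.5. The 22 genes below 10 in every group included the neutrophil-attracting ligands Cxcl1, Cxcl2, Cxcl3 and Cxcl5 and their receptors Cxcr1 and Cxcr2, the CC ligands Ccl3 and Ccl4, the CCR4 ligand Ccl17, and Ccl1, Ccl19, Ccl20, Ccl21a, Ccl21b, Ccl21c, Ccl26, Ccl27b, Cxcl15, Cxcl17, Ccr3, Ccr4 and Ccr8. The highest single value among them was 19, in Cxcl1 and in Cxcr2. Of the 54 genes, 7 were at 1 or 2 in every library.

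Of 16 related chemokine and receptor symbols outside the 4 name patterns, 13 were in the tables. After 12 weeks 3 were higher and 3 lower in 129 eWAT, on the control diet 1 higher and 2 lower, on rosiglitazone 2 higher and 1 lower, and on chow none was called. Of all genes, 11.6% were higher and 10.2% lower in 129 eWAT after 12 weeks, and 10.0% and 7.50% on the control diet. Cmklr1, the receptor of the adipokine chemerin, fell with the drug in 129. It averaged 285 ± 34 on rosiglitazone and 832 ± 27.8 on the control diet in 129 (-1.55 ± 0.14, adjusted p = 7.69e-07), and the response in 129 minus that in C57 was -1.03 ± 0.20 (adjusted p = 0.0384). Cx3cr1, the fractalkine receptor of monocytes, averaged 17.3 ± 4.86 in 129 and 5 ± 1.41 in C57 eWAT after 12 weeks (1.59 ± 0.26, adjusted p = 0.00555). Ccrl1, an atypical receptor that takes up CCL19, CCL21 and CCL25, averaged 124 ± 14.1 in 129 and 202 ± 18.9 in C57 there (-0.70 ± 0.09, adjusted p = 0.0024).

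Downstream of the receptors, 30 signalling genes were examined. In 129 eWAT 4 were higher and 9 lower after 12 weeks, 3 higher and 5 lower on the control diet, 2 higher and 5 lower on rosiglitazone, and none higher and 1 lower on chow. Of all genes, 11.6% were higher and 10.2% lower after 12 weeks, 10.0% and 7.50% on the control diet, and 5.45% and 5.23% on rosiglitazone. Of the 30 genes, rosiglitazone gave 1 higher and 2 lower in 129 and none higher and 1 lower in C57. Between depots 2 were higher and 2 lower in C57 iWAT and none in 129, and iWAT gave no call between strains. Grk5, a kinase that desensitizes G protein-coupled receptors, was lower in 129 in 3 comparisons: it averaged 79.8 ± 13.7 in 129 and 175 ± 43.5 in C57 on the control diet (adjusted p = 6.24e-05), 93 ± 11 in 129 and 177 ± 16.4 in C57 on rosiglitazone (adjusted p = 0.00054), and 108 ± 21.8 in 129 and 203 ± 13.9 in C57 after 12 weeks (adjusted p = 0.0025). Rgs1, which speeds the shutdown of G protein signals in lymphocytes and macrophages, averaged 26.5 ± 6.25 in 129 and 6 ± 2.24 in C57 after 12 weeks (adjusted p = 0.00296).

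Of 21 cytokines that can induce chemokines, none was called on chow or in the drug comparisons. On the control diet only Il18 was called, at 42.3 ± 6.85 in 129 and 16.5 ± 2.38 in C57 (1.30 ± 0.25, adjusted p = 0.00102). It was again higher in 129 after 12 weeks, at 56 ± 4.55 in 129 and 31.8 ± 6.83 in C57 (adjusted p = 0.0146), where Ltb and Il4 were lower. The Il4 call rests on values at the floor of 1 in every 129 library and at 1 or 2 in C57. In iWAT only Il10 was called between strains, at 2 in every 129 library and 1 in every C57 library, where a value of 2 could not occur, so the call does not show a difference. Il33, an alarmin of stromal cells, was lower in iWAT than in eWAT in both strains, at 44.3 ± 25.6 in iWAT and 142 ± 20.8 in eWAT of 129 (adjusted p = 0.0124) and 42.3 ± 17.9 in iWAT and 112 ± 22.7 in eWAT of C57 (adjusted p = 0.00875).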

How the data were processed

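RNA was sequenced from 43 mouse adipose libraries in 10 groups. The authors deposited 5 tables of normalized expression values, a score with no stated unit (whole numbers, floor of 1); the submitters' processing notes list HOMER and mm9, without saying what each served for. The chow, drug and 12-week experiments have 3 separate scales, and the 8 control-diet columns are identical in both drug tables. Library totals ran from 5537632 to 7526303, but depth is unknown. The F1 and GRO-seq samples were not analysed here.

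From these scores, log2(value + 1) was fitted with limma 3.58.1 in R 4.3.3 (trend and robust, two-sided, Benjamini-Hochberg over 22869 genes); tables were handled with pandas 2.3.3. The drug groups shared 1 fit, as did the 4 groups of the 12-week depot comparisons. Strain comparisons on chow and within each 12-week depot were fitted alone. On simulated data with 200 changed genes the chow fit recovered 42% of changes of 1 log2 unit, and the iWAT fit 14%. False calls made up 7.8% of all calls on chow, 7% in 12-week eWAT and 9.1% between depots in C57. They made up 5.3% on the control diet and 2.8% in iWAT.

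The members and lists were chosen with earlier results of these data known. Genes with a group mean of 10 or more are described, the called ones with every library's value. From each context list, up to 4 called genes with the smallest p per comparison could be named. Alternatives were another pseudocount, a low-value filter, array weights, other ways to combine transcript rows, groups fitted alone, a replicate block and leaving out libraries. Promoters come from RefSeq, GRCm38.p6, where 37 members matched by symbol; 5 motifs were searched, and all are reported. Exon overlaps were read from GENCODE M21. How reads of 129 mice map to a C57BL/6J reference was not examined. The 4 promoters shown were chosen after the values were seen. Of the 32 genes that reached a mean of 10, 1 is counted but not reported here by name.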

Additional observations from a re-analysis of the deposited data

Results flagged for a closer look

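Values of the 19 called genes that reached a group mean of 10 were screened for a single library far from the rest of its group, by the gap to its nearest neighbour over the group's range. Of 154 groups of values, 8 held such a library, and chance alone flags about 1 group in 20.

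Ccl8 in 129 chow replicate 1 was 35, against 6 to 11 in the other 4 libraries. Cxcl14 in the same library was 162, against 36 to 60. Cxcr7 in 129 chow replicate 2 was 97, against 270 to 336. These are the chow libraries with epididymis transcripts, whose part in the values was not tested. In C57 on chow, Cxcl14 in replicate 4 was 50, against 18 to 26, and Ccl27a in replicate 3 was 22, against 13 to 14.

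Ccl24 in C57 control diet replicate 4 was 40, against 16 to 18. Cxcl13 in C57 rosiglitazone replicate 2 was 55, against 9 to 15. Ccl11 in C57 iWAT replicate 4, a library rich in B cell markers, was 249, against 377 to 392.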

How the results depend on the processing

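Of 38 calls summed over the comparisons, 9 were kept in every alternative fit, and among 547 refitted values 407 kept the call, 140 lost it and none changed direction. Counts not given below stayed within 1.5 times. On chow, where 1 gene was called, the low-value filter gave 2, array weights 6 and leaving out both libraries with epididymis transcripts 4; leaving out 1 library gave 0 to 4. For strain on rosiglitazone, where 6 were called, the groups fitted alone gave 3, and leaving out 1 library 2 to 6. For strain in iWAT, where 2 were called, a pseudocount of 10 gave 1, the filter 0, and leaving out 1 library 0; without the 3 libraries rich in B cell markers, a choice made after seeing the data, it was 1 (Ccr3, at 2 in 129 against the floor in C57, where 2 could not occur). In C57 between depots 7 became 4 with array weights and 4 to 7 without 1 library; in 129 3 became 1 with groups fitted alone or without those 3 libraries, and 2 to 4 without 1 library. In the strain by depot interaction 0 became 1 with the filter, with array weights or without those 3 libraries, and 0 to 1 without 1 library. Rosiglitazone in C57 gave 0 to 2 and in 129 1 to 2 without 1 library; the control diet gave 6 to 7 and 12-week eWAT 9 to 11. The causes were not tested.

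Deviations of same-numbered replicates from their group means had correlations from -0.492 in a chow pair to 0.519 in an iWAT pair. No comparison had every pair above 0.1. A low correlation cannot exclude pairing, so whether the numbers pair the libraries stayed undecided. With the replicate number as a block, the count was 0 on chow and in iWAT, 1 in 12-week eWAT (against 11) and 2 between depots in C57 (against 7), and within 1.5 times elsewhere. Depth is unknown, but the C57 iWAT scale limits low values: nothing between the floor and 5 to 11 occurs there.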
